A study of Cardamine hirsuta with 6 samples.

Results

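The *Cardamine hirsuta* genes that match *UGT74E2*, *UGT73C1* and *UGT84A3* of *Arabidopsis thaliana* each held 1 reproducible DAP-seq peak of the transcription factor ChCUC1, and in all 3 genes the peak lay in exon 1. The 3 genes were taken, as the matches of AT1G05680, AT2G36750 and AT4G15490, from the annotation of the DAP-seq peaks, so that each has a peak follows from the choice. Their peaks are 3 of the 2432 reproducible peaks of the experiment. The strongest was at *UGT74E2*, with a fold enrichment of 6.85, the ratio over the Halo control that the authors' peak calling gave. *UGT84A3* had 3.18 and *UGT73C1* 2.87, both near the median of 3.04 over all reproducible peaks.

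All 3 genes encode family 1 UDP-dependent glycosyltransferases (UGTs), enzymes that move a sugar, mostly glucose from UDP-glucose, onto hormones, phenolic compounds and foreign chemicals. The sugar changes the solubility, transport and activity of the acceptor, and glucosylation is one of the ways in which plants lower or store active hormone. In *A. thaliana*, UGT74E2 glucosylates the auxin precursor indole-3-butyric acid, UGT73C1 is a cytokinin O-glucosyltransferase that also acts on foreign compounds, and UGT84A3 makes glucose esters of hydroxycinnamic acids. ChCUC1 is a NAC transcription factor that is expressed at leaflet initiation sites on the margin of the complex *C. hirsuta* leaf.

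DNA affinity purification sequencing (DAP-seq) incubates a tagged transcription factor with purified, fragmented genomic DNA and sequences what it retains. There were 3 samples with HaloTag-ChCUC1, made in a wheat germ extract, and 3 control samples with the HaloTag alone (Halo control), all on genomic DNA of the *C. hirsuta* accession Oxford. The protocol names rosette leaves of plants aged 4 weeks as the DNA source, whereas the tissue label reads seedlings. DNA in this assay carries no nucleosomes, so a peak shows binding to the bare sequence and gives no information on a cell type. The values come from 4 peak lists. The reproducible list combines the ChCUC1 libraries, and each of the other 3 was called on 1 library against the pooled Halo control: the whole-library list (4778 peaks), the longer pseudoreplicate list (3753 peaks) and the shorter pseudoreplicate list (3253 peaks), a pseudoreplicate being a random part of the reads of a library. The whole-library and the shorter list carry the name of the same sequencing run and the longer list that of another. No list carries a replicate number, the read depth per library is unknown, and the single-library lists overlap in their reads with the reproducible list, so presence in them is not independent of it. Each peak has 1 fold enrichment per list with no replicate error, and values of the Halo control itself are not given. For this reason no test between the 3 genes was possible, and the lists are given side by side.

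*UGT74E2* (CARHR005200) had 1 of the strongest ChCUC1 peaks of the experiment. The reproducible peak lay on chromosome 1 from 1760800 to 1761306, in exon 1 of 2, with its centre 383 bp downstream of the gene start. Its −log10 p of 354 ranked 14 and its fold enrichment of 6.85 ranked 54 among the 2432 peaks. The whole-library list gave a fold enrichment of 6.66, the longer pseudoreplicate list 6.53 and the shorter one 5.83. In these lists the peak ranked 71, 50 and 100, so it stayed within the top 3.07% by fold enrichment in every list. The summit, the point of highest signal, lay at 1761053 in the reproducible list, and the 3 single-library summits lay within 3 bp of it. The peak was 507 bp wide in the reproducible list, and 496, 731 and 318 bp wide in the whole-library, the longer and the shorter list.

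*UGT73C1* (CARHR131110) had, in the reproducible list, the weakest of the 3 peaks and the one nearest to the gene start. The reproducible peak lay on chromosome 4 from 17763040 to 17763528, in exon 1 of 2, with its centre 124 bp downstream of the gene start. Its fold enrichment of 2.87 ranked 1410 and its −log10 p of 35.9 ranked 1591. Its score was 851, one of 774 reproducible peaks below the highest score of 1000, where the score is the authors' scaled measure of reproducibility. Its fold enrichment was 2.60 by the whole-library list, 3.44 by the longer pseudoreplicate list and 2.63 by the shorter one. The longer list was thus 1.32 times the whole-library list at this gene. This ratio was above that of 98.2% of the 2221 reproducible peaks called in both, for which the median was 0.967. The shorter list was 0.765 times the longer one, a ratio above that of 12.7% of the 1525 peaks called in both. It was 1.01 times the whole-library list, a ratio above that of 65.6% of the 1574 peaks called in both. The longer and the whole-library list differ both in sequencing run and in the part of the reads used, which cannot be told apart. The summits nearly coincided all the same: at 17763269 in the reproducible list, 0 bp away in the whole-library and the longer list, and 2 bp away in the shorter one. In the shorter list the peak had a −log10 q of 1.40, just past the value of 1.30 that a q of 0.05 corresponds to. The single-library lists were called with a limit on the p-value, per their names, and not on the q-value. The −log10 p of the peak in the shorter list, 4.39, was a little below the median of 4.73 over that list.

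*UGT84A3* (CARHR222260) had a peak of middling strength far inside its only exon. The reproducible peak lay on chromosome 7 from 13490463 to 13491003, in exon 1 of 1, and its centre was 1096 bp downstream of the gene start. Its fold enrichment of 3.18 ranked 1080, its −log10 p of 54.4 ranked 1066, and its score was 1000. With 3.36 it was strongest in the whole-library list, followed by 2.87 for the longer pseudoreplicate list and 2.56 for the shorter one. At this gene the longer list was 0.854 times the whole-library list, the opposite direction to *UGT73C1* and well within the range of all peaks, since 19.2% of them had a lower ratio. The summit lay at 13490753 in the reproducible list, and the single-library summits 1, 11 and 19 bp from it. The −log10 q in the shorter list was 1.50, again just past the value of 1.30 that a q of 0.05 corresponds to. The −log10 p there, 4.51, was likewise a little below the median of 4.73 over that list.

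**Figure D1:**
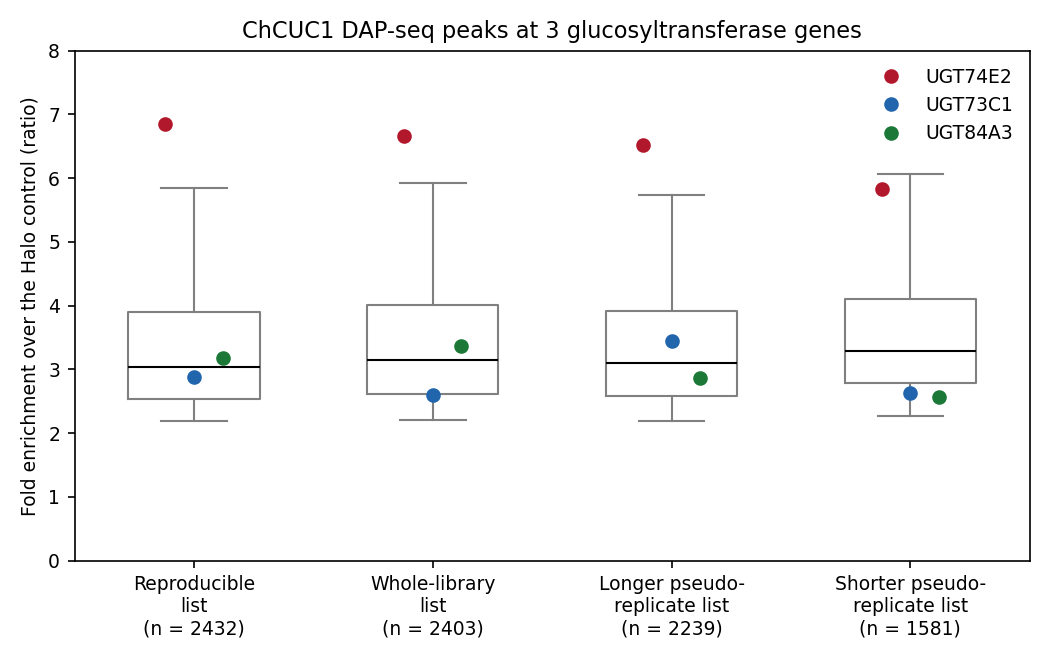
Fold enrichment over the Halo control (y axis, ratio) of the peaks at *UGT74E2* (red), *UGT73C1* (blue) and *UGT84A3* (green) in each of the 4 peak lists (x axis). Boxes show all reproducible peaks called in that list (n below each), with the quartiles and median, and whiskers from percentile 5 to 95; *UGT74E2* lies above the upper whisker in 3 of the 4 lists, whereas the order of *UGT73C1* and *UGT84A3* changes between lists.

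*UGT74E2* was thus set apart from the other two genes in every list, by at least 3.09 in fold enrichment, whereas *UGT73C1* and *UGT84A3* could not be ranked against each other. *UGT84A3* was the higher of the pair in the reproducible and the whole-library list, and *UGT73C1* in the longer and the shorter pseudoreplicate list. The gap between the pair was 0.305 in the reproducible list, less than the range of 0.835 that *UGT73C1* alone covered over the 3 single-library lists.

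Each single-library list contained a call at all 3 genes, with an overlap of at least 1 bp, and all 9 calls had a q-value under 0.05. Among all reproducible peaks, the whole-library list contained 98.8%, the longer pseudoreplicate list 92.1% and the shorter one 65.0%, while 62.5% were in all of them, or 56.4% with a q-value under 0.05 in each. For *UGT74E2* presence in each list is the rule at its strength, since all 100 peaks nearest to it in rank by fold enrichment were called in each list. Around *UGT84A3*, 70 of the 100 peaks nearest in rank were called in the shorter list, and around *UGT73C1* 61 of 100. With the stricter requirement that the overlap cover 50% of the width of both peaks, *UGT74E2* was still found in all 3 lists, as were 14.6% of all reproducible peaks, and *UGT73C1* and *UGT84A3* were found in 2. The shorter list then contained 15.9% of all reproducible peaks. These shares were not computed for peaks of like strength, so whether *UGT74E2* stands out by this requirement was not tested. The calls at *UGT73C1* and *UGT84A3* in the shorter list were 151 and 150 bp wide. They covered 30.9% and 27.7% of the reproducible peaks, so they could not reach 50%, although their summits were at most 19 bp off.

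**Figure D2:**
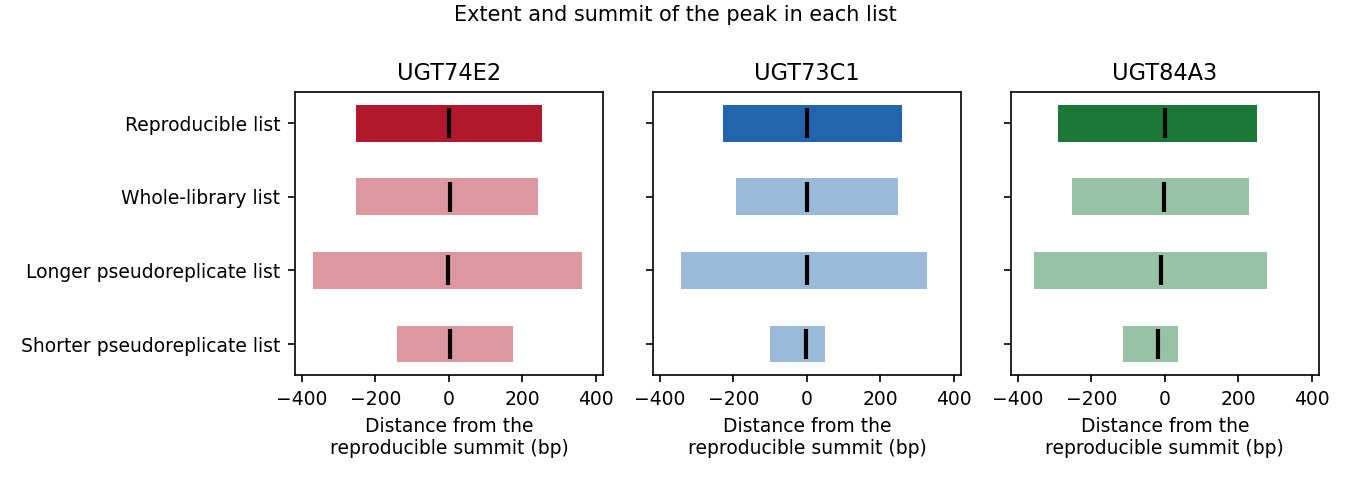
Extent of the peak at each gene (bars, from peak start to peak end) and its summit (black ticks) in the 4 lists, as distance from the reproducible summit in bp (x axis). The bars differ in width, from 150 bp at *UGT84A3* in the shorter pseudoreplicate list to 731 bp at *UGT74E2* in the longer one, while all summits lie within 19 bp of each other.

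The 3 genes shared a position in exon 1 but not a distance from the gene start. Exon 1 held 14.6% of the 1996 annotated reproducible peaks, 292 in all, with a median distance of the peak centre from the gene start of 521 bp and quartiles of 320 and 846 bp. *UGT73C1*, at 124 bp, was nearer to the gene start than most of them, with 2.74% nearer still. *UGT74E2*, at 383 bp, lay within the quartiles, and *UGT84A3*, at 1096 bp, was farther out than 86.3% of them. By fold enrichment, *UGT74E2* exceeded 96.9% of the exon 1 peaks, *UGT84A3* 44.5% and *UGT73C1* 30.1%. Distances are given for the peak centre because the strand of the genes was not used here. The summits lay 0 bp from the centre at *UGT74E2*, 15 bp at *UGT73C1* and 20 bp at *UGT84A3*.

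The surroundings of the 3 peaks differed. The peaks of *UGT74E2* and *UGT73C1* had no other reproducible summit within 20 kb. The next lay 27.1 and 41.4 kb away, against a median of 14917 bp over all reproducible peaks. Of the 2408 reproducible peaks with a neighbour, 63.9% had a nearer one than *UGT74E2* and 75.1% a nearer one than *UGT73C1*. Within 20 kb of them, the single-library lists added only calls that were weak and not shared between lists: 1 near *UGT74E2*, in the whole-library list with a fold enrichment of 1.52, and 2 near *UGT73C1*, with 2.06 in the shorter and 1.65 in the whole-library list. None of these reached a q of 0.05, the highest −log10 q being 1.07.

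*UGT84A3*, by contrast, was the first of 3 reproducible peaks within 13652 bp. The next peak, at CARHR222270 from 13498555 to 13499065, lay 8065 bp from it, measured between summits, and had a fold enrichment of 3.62. The annotation gives CARHR222270 no *A. thaliana* match. Its peak also lay in exon 1 of 1, with its centre 1070 bp from the gene start, within 26 bp of the distance at *UGT84A3*. The last of the 3 peaks, from 13504191 to 13504635, had a fold enrichment of 2.29 and a score of 616. Its row in the annotation was not held, as for the peaks with the lowest −log10 p, but it lies inside the ChIP-seq peak that is assigned to CARHR222280, the match of *UGT84A4*, which in *A. thaliana* is a neighbour and close relative of *UGT84A3* with like substrates. The peak at CARHR222270 and this last one were called in the whole-library list, with 3.79 and 2.54, and in the longer pseudoreplicate list, with 3.99 and 2.46. Neither was called in the shorter list, where *UGT84A3* was, although CARHR222270 had the higher fold enrichment in the other 3 lists. No sequences of these genes were compared, and how reads that match several places were treated is not known here, so whether the 3 peaks share reads was not tested.

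**Figure D3:**
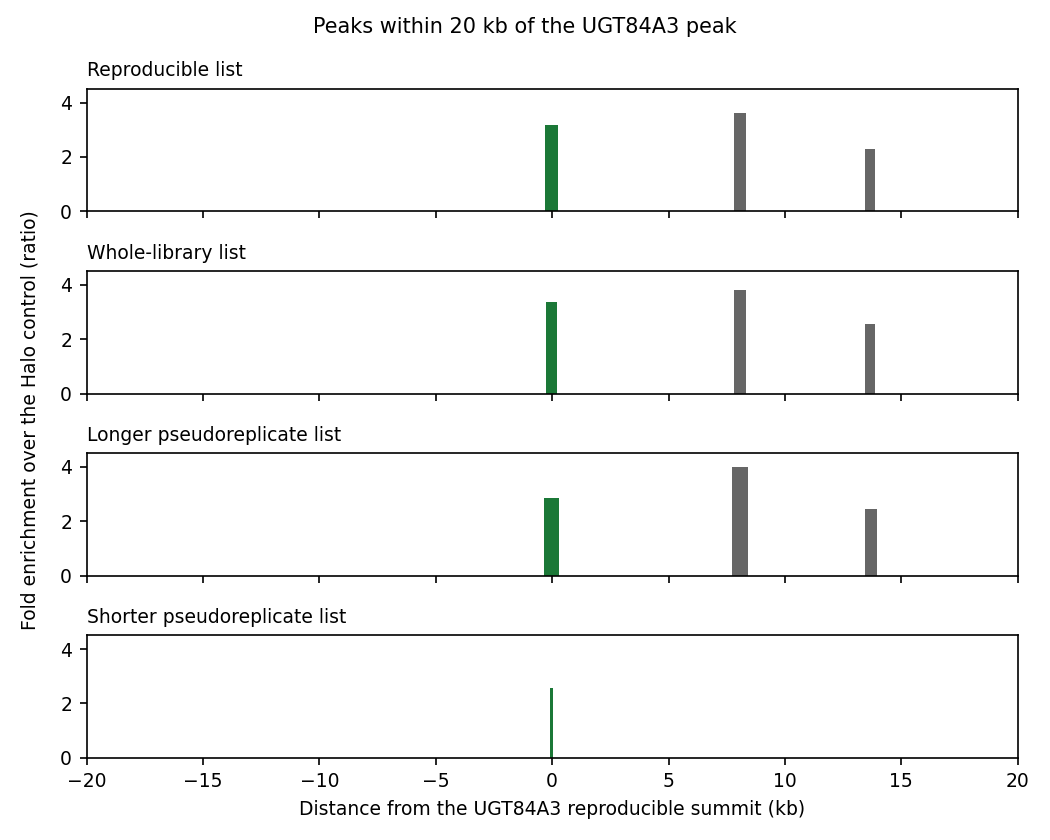
Peaks within 20 kb of the *UGT84A3* peak in the 4 lists (rows), drawn from peak start to peak end as distance from the *UGT84A3* reproducible summit in kb (x axis), with the fold enrichment over the Halo control as height (y axis, ratio). *UGT84A3* is green, and the peak at CARHR222270 and the one inside the ChIP-seq peak of CARHR222280, 8065 and 13652 bp from it, are gray; the shorter pseudoreplicate list holds only the *UGT84A3* peak.

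Among the wider UGT family, the 3 genes were part of a set of 17 genes to which ChCUC1 peaks were assigned. Of 108 *A. thaliana* UGT genes listed by name, 17 had a match with a peak in the held rows of the annotation, with 18 peaks in all. For 13 of the 17, the position given for a peak names the UGT gene itself. The peak assigned to *UGT76C2* lay in an exon of another gene. Those assigned to *UGT74F1*, *UGT72C1* and *UGT76B1* lay at the transcript ends of other genes. The share of all *C. hirsuta* genes with a peak was not computed here, so 17 cannot be called many or few. The number of *C. hirsuta* UGT genes was not counted. The held rows leave out 435 of the reproducible peaks, among them the one inside the ChIP-seq peak of *UGT84A4*. The number 17 is thus a lower count of genes with an assigned peak. The median fold enrichment of the 18 peaks was 3.70, against 3.28 over all 1997 held peaks, and 11 of the 18 were above the latter value. *UGT74E2* ranked 2 in the family, *UGT84A3* ranked 13 and *UGT73C1* ranked 15. Of the 18 peaks, 12 were in an exon, or 66.7% (95% exact binomial interval 41.0 to 86.7%), against 33.6% of all annotated peaks (31.5 to 35.7%). For 11 of these 12 the exon belonged to the assigned UGT gene. Exon 1 held 7 of the 18 peaks, or 38.9% (17.3 to 64.3%), against 14.6% of all annotated peaks (13.1 to 16.3%), and 5 of these 7 were in genes with 1 exon. These intervals cover counting error over peaks only, and peaks in neighbouring genes of 1 family may not be independent. The list was chosen with earlier results known, and the 3 genes are among the 7 with a peak in exon 1. How much of a UGT gene is exon was not compared with other genes, so a preference for exons was not tested.

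The members of the family with peaks act on several classes of acceptor. Among the hormone enzymes, the peak of *UGT74E2* was close in strength to those at *UGT76C4*, a relative of the cytokinin enzymes, with 7.02 in the promoter, and at *UGT76C2*, a cytokinin N-glucosyltransferase, with 6.04. The peak assigned to *UGT76C2* lay in an exon of the neighbouring gene CARHR207350, and *UGT76C4* held another peak in exon 2 with 3.24. The peak of the cytokinin O-glucosyltransferase gene *UGT73C1* was weaker than all of these. *UGT71B6*, an abscisic acid glucosyltransferase, had 3.68, and the salicylic acid glucosyltransferase genes *UGT74F1* and *UGT74F2* had 3.73 and 2.52. *UGT76B1*, which acts on defence signals, had 2.44, the lowest value of the family. Among the phenylpropanoid enzymes, *UGT84A3* was near the monolignol glucosyltransferase gene *UGT72E2*, with 3.72, and the flavonoid enzyme genes *UGT79B1* and *UGT79B6*, with 3.49 and 2.91. The remaining UGT genes with a peak were not placed in a class here. Their peaks had 4.73 at *UGT72D1*, 4.28 at *UGT76E2*, 4.04 at *UGT76E12*, 3.72 at *UGT76E4* and 2.65 at *UGT72C1*. Neighbouring peaks were also seen at other UGT genes: the summits of *UGT79B1* and *UGT79B6* were 3620 bp apart, those of *UGT74F1* and *UGT74F2* 6529 bp, and that of *UGT76C2* was 1947 bp from the promoter peak of *UGT76C4*. In all, 10 of the 18 family peaks had another reproducible summit within 10 kb, *UGT84A3* being the only 1 of the 3 genes among them. The corresponding share over all held peaks was 40.6%.

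**Figure D4:**
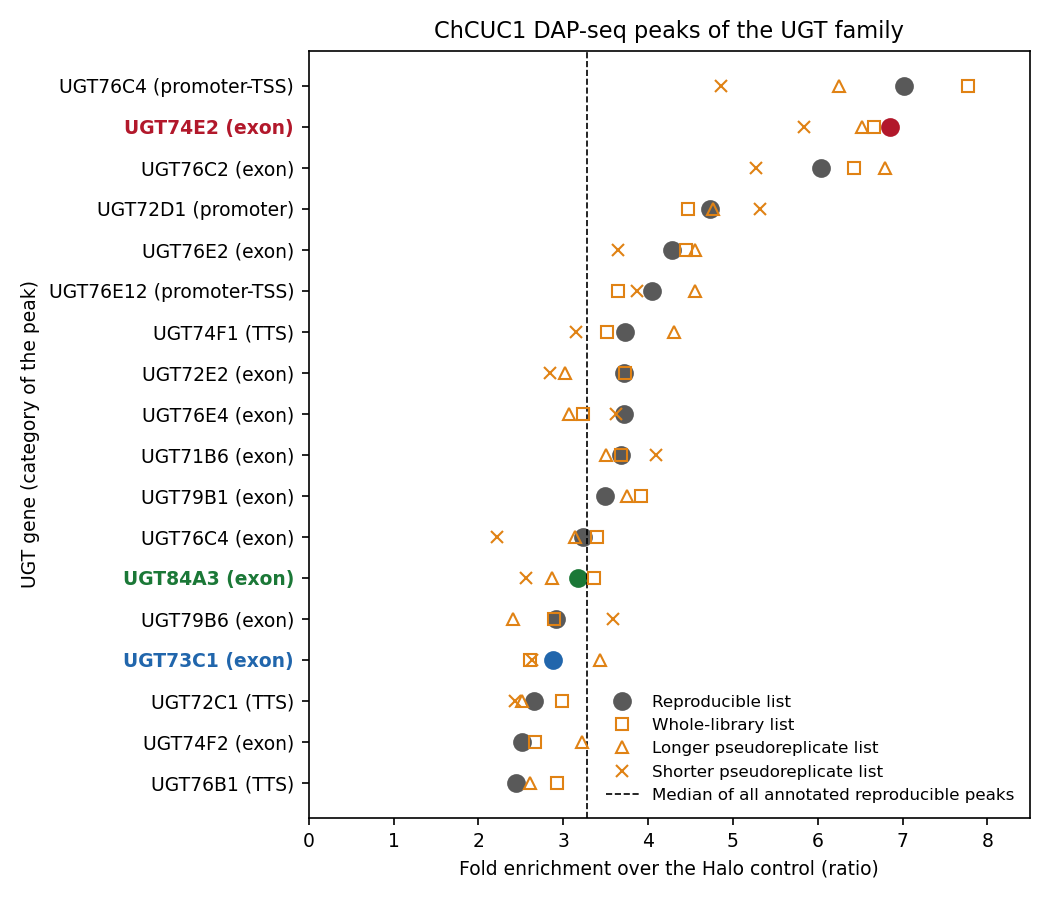
Fold enrichment over the Halo control (x axis, ratio) of the 18 peaks of UGT genes (y axis, with the category of the peak in the annotation, TTS being the transcript end) in the reproducible list (filled circles, with the 3 genes in colour) and the single-library lists (open squares, open triangles and crosses). The dashed line is the median of 3.28 over all 1997 held peaks, above which *UGT74E2* lies in every list; *UGT84A3* and *UGT73C1* lie on both sides of it.

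The 3 genes also differed in what the other experiments of the study list for them. Those experiments are ChIP-seq with ChCUC1:V plants and RNA-seq of shoot apices after dexamethasone induction of *ChCUC1:V*, driven by the *RCO* promoter at the leaf margin, and their values were not re-analysed here. *UGT74E2* and *UGT73C1* are both listed as lower after induction at each of 2, 4, 6 and 8 h in Dataset S1. Of the 1876 genes with a held DAP-seq peak, 6.93% are listed as lower at 2 h, 5.54% at 4 h, 2.67% at 6 h and 5.22% at 8 h, and 1.44%, or 27 genes, at all 4 times. *UGT84A3* is not listed at any of these times, although 166 rows of the 8 h list were not held. The shares at 8 h and at all 4 times are thus lower limits. For ChIP-seq the pattern was the reverse. *UGT84A3* is among the 422 genes of Dataset S3 bound in both assays, as are 18.2% of the genes with a held peak, and *UGT74E2* and *UGT73C1* are not. The ChIP-seq row of *UGT84A3* itself was not among the 1997 held rows, so its position could not be set against the DAP-seq peak. None of the 3 genes is among the 28 targets in Dataset S3, which require binding in both assays and a change after induction and include 1.28% of the genes with a held peak.

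Among the 17 UGT genes with a peak, 5 are listed as lower at 1 or more times and 2 as higher, in the held rows. Of the genes with a held peak, 9.33% are listed there as lower only and 4.74% as higher only. The 5 are *UGT74E2*, *UGT73C1*, *UGT76B1*, *UGT74F2* and *UGT76E4*, of which *UGT76B1* is the only other one listed as lower at all 4 times. The 2 listed as higher are *UGT72E2* and *UGT79B1*. Genes listed as lower had peaks over nearly the whole range of the family in fold enrichment, with 6.85 at *UGT74E2*, 3.72 at *UGT76E4*, 2.87 at *UGT73C1*, 2.52 at *UGT74F2* and 2.44 at *UGT76B1*, and those listed as higher lay inside it, with 3.72 at *UGT72E2* and 3.49 at *UGT79B1*. The peak assigned to *UGT76B1* lay at the transcript end of another gene. Of the 17, 5 are bound in both assays, against 18.2% of the genes with a held peak, and 3 are among the 28 targets, against 1.28%, namely *UGT72E2*, *UGT79B1* and *UGT76B1*.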

How the data were processed

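The authors aligned the reads and, per the names of the single-library lists, removed duplicates and called peaks against pooled controls with a p-value limit of 0.01. Bowtie, MACS2 and bedtools are named in the submitters' processing notes. Neither tool versions nor the genome build were given in the sources used here. The fold enrichment (a ratio), the −log10 of the p-value and q-value, the summit and the score are the authors' deposited values. Positions are those of the lists, counted from 1. Genes, exons and distances to the gene start come from the DAP-seq annotation in Dataset S2, held for 1997 of 2432 peaks. Its distances were taken from the peak centre, as was tested on 118 pairs of peaks of the same transcript, all of which differed by the same distance within 1 bp.

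Lists were joined by overlap of at least 1 bp with pandas 2.3.3 and NumPy 2.4.6 in Python 3.11.15. Binomial intervals were from SciPy 1.17.1 and plots from matplotlib 3.10.9. The join was checked on simulated lists of 2000 peaks each, of which 1300 were shared and 1300 were found. The simulated peaks were spaced so that shared ones had to overlap and others could not. The check thus covers the code only, not closely spaced peaks. From Datasets S1 and S3 only the direction or the presence of a gene was read. The 3 genes and the UGT list, written from the *A. thaliana* family, were chosen with earlier results of these data known. The genes named were these 3, the UGT genes with a held peak, and genes with peaks near the 3. No sequence of the build was used here.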

Additional observations from a re-analysis of the deposited data

How the results depend on the processing

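No paired analysis was possible because no list has a replicate number and the Halo control was pooled. Of 39 values under the alternatives, 37 stayed within 1.5 times for counts and ranks, or within 1 SD over the family's peaks for its median, and 2 moved: the rank of *UGT74E2*, 54 by fold enrichment, was 14 by −log10 p and also 14 by −log10 q. A fall from 3 lists to 2 is within this limit, so the counts of lists could hardly move and add little to the 37. With a list left out, each gene was in 2 of the remaining 2 lists, which follows from its presence in all. In the top 50% of each list by fold enrichment, *UGT84A3* was found in 2 lists, and the other two genes in 3. The count of 17 UGT genes with a peak was between 12, in the top 50% by fold enrichment, and 17. It was 13 where the annotation of the peak had to name the gene. The distance of the summit from the gene start was not computed as planned, since the strand was not used. Presence in lists that share reads says little about stability between libraries, and the unknown depth limits every comparison of fold enrichment between lists.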
